A study of Mus musculus with 16 samples.

Results

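The genes described here are 10 regulators of multiciliated cell formation: Foxj1, Ccno, Mcidas, Gmnc, E2f4, E2f5, Myb, Trp73, Cdc20b and Deup1. They were chosen by name, with earlier results of these lists known, and no measured value is part of the rule. They were found by symbol among 21887 protein-coding genes of a RefSeq gene table (GRCm38.p6, the assembly of mm10). Binding at these genes was read from 3 deposited peak lists, 1 per transcription factor, for Foxn3, Foxn4 and Rfx3. A peak was assigned to a gene when any base of it lay in the gene body or within 50 kb of either annotated end. All coordinates are mm10, counted from 1.

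The lists come from CUT&RUN, in which an antibody bound in intact cells directs micrococcal nuclease to cut out the DNA beside its target protein. Every group used retinas of CD-1 mice at embryonic day 16, pooled and made into single cells, with 300000 cells per assay. The antibody libraries numbered 4 for Foxn3 (from 2 experiments), 2 for Foxn4 and 2 for Rfx3, and 8 further libraries were immunoglobulin G controls: 4 rabbit for Foxn3, 2 rabbit for Rfx3 and 2 mouse for Foxn4. Digestion took 1 h for the Foxn3, Rfx3 and rabbit control libraries and about 12 h for the Foxn4 and mouse control libraries. In any comparison with Foxn4, the antibody, the control species and the digestion time cannot be told apart. The retinal identity of the cells was not checked, because these lists hold binding sites and no expression. The lists held 2794 Foxn3, 2956 Foxn4 and 3981 Rfx3 peaks. None separates its libraries, so no value below has a spread between replicates, no test was made, and the read depth behind a peak is unknown.

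Multiciliated cells, such as those lining the airways and the brain ventricles, grow many motile cilia and first make many centrioles to seed them. Gmnc and Mcidas, relatives of the replication inhibitor geminin, start this programme together with E2f4 or E2f5. They switch on Ccno and Deup1, which serve centriole amplification, and transcription factors such as Myb, Trp73 and Foxj1. Foxj1 then drives genes of the motile axoneme, many of which are also targets of the Rfx family. Retinal cells carry a single primary cilium, which photoreceptors modify into the outer segment, and multiciliated cells are not among the known retinal cell types.

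Promoter sequence shows what the bound and unbound genes of the set carry. RefSeq promoter windows (GRCm38.p6, from 250 bases before to 50 bases after a transcript start) were matched for 7 of the 10 genes, in 10 windows. Foxj1, E2f4 and E2f5 had no window in the table. Of all 21263 promoter windows of protein-coding genes, 1751 met a Foxn3, 935 a Foxn4 and 2155 an Rfx3 peak. Of the 10 windows here, 1 met a peak, which is near the background and shows nothing about the set. It was that of Ccno, which lay wholly within both its Foxn3 and its Rfx3 peak. It is shown beside the windows of its neighbour Mcidas and of Deup1, which met no peak although they hold some of the same letters. Each line gives the 250 bases upstream of the start on the gene's own strand. Capitals mark GTTGCC (1 arm of the X-box, the palindromic site that Rfx proteins recognise), the rest of an imperfect X-box where there is one, and GACGC (a site bound by Foxn-family forkhead proteins), on either strand.

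Ccno, chr13:112987552-112987801, plus strand: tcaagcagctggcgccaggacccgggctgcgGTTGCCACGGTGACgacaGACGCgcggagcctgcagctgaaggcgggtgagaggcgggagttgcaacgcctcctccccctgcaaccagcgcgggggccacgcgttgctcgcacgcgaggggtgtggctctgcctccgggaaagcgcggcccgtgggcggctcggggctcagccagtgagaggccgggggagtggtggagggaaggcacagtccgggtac
Mcidas, chr13:112993618-112993867, plus strand: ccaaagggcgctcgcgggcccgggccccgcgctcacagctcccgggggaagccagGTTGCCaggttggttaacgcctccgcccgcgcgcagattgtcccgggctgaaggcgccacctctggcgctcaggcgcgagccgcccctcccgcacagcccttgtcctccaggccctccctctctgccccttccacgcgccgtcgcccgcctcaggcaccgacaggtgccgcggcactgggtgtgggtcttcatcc
Deup1, chr9:15627847-15628096, minus strand: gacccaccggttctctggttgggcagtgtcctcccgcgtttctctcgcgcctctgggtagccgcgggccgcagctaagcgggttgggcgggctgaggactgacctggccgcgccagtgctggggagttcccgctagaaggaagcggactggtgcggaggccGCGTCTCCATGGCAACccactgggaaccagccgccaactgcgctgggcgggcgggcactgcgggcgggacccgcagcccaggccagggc

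The Ccno window holds GTTGCCACGGTGAC, from 219 to 206 bases before the start, and GACGC from 201 to 197 bases before it. The Deup1 window holds GTTGCCATGGAGAC on the opposite strand, from 87 to 74 bases before the start, where it overlaps a GACGC on that strand by 3 bases. Both are imperfect X-boxes: GTTGCC is followed, after 2 bases, by letters with 1 mismatch to GGNAAC. This looser search was added after the Ccno sequence had been seen. Mcidas has GTTGCC, 195 to 190 bases before its start, with no second arm of that kind. No window of the 7 genes holds a full X-box, defined as GTTGCC and GGNAAC separated by 1 to 3 bases.

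In this set, GTTGCC and GACGC occurred in the 1 bound window, that of Ccno, and also in unbound ones. With 1 bound window, and no window for Foxj1 and E2f5, whether the letters separate bound from unbound cannot be read from the set. GTTGCC occurred in 4 of the 10 windows (Ccno, Mcidas, Deup1 and Trp73) and in 12.6% of all 21263 promoter windows of protein-coding genes. GACGC occurred in 5 of the 10 (the same 4 and Cdc20b) and in 33.4% of all. In Mcidas and Trp73 it lay after the start. The upstream 250 bases of these windows were rich in G and C: 72.4% in Ccno, 73.6% in Mcidas, 72% in Deup1, 77.2% in Trp73 and 63.6% in Cdc20b. The mean over all windows was 55.5%, and whether base content accounts for the letters was not tested. Among windows that met a Foxn3, Foxn4 or Rfx3 peak, GTTGCC was in 26.5%, 15.9% and 27%, and GACGC in 57.5%, 57.1% and 55.2%. An X-box with at most 1 mismatch to GGNAAC, full or imperfect, occurred in 2.24% of all windows. It was in 11.4% of the 1751 that met a Foxn3 peak and in 12.6% of the 2155 that met an Rfx3 peak. Of the 935 that met a Foxn4 peak, 2.89% held it. The full X-box, which those shares include, followed the same order, with 0.475% of all windows. It was in 3.08%, 3.39% and 0.642% of those meeting Foxn3, Rfx3 and Foxn4 peaks. A forkhead site, GTAAACA, was found in the Myb window alone among the 10, after the start, against 3.01% of all windows. Unlike the letters above, it was less frequent in windows that met a Foxn3, Foxn4 or Rfx3 peak (2.23%, 1.39% and 2%). The E2F letters TTCCCGC were found in 1 window each of Trp73, Deup1 and Cdc20b, against 5.95% of all. Windows that met Foxn3, Foxn4 and Rfx3 peaks held them in 10.6%, 12.4% and 9.65%. All searches covered both strands.

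Of the 10 regulators, 3 had a Foxn3 peak with its midpoint within 1 kb of a gene end: Foxj1, Ccno and E2f5. The same 3 had an Rfx3 peak there, and none had a Foxn4 peak. Among all protein-coding genes, 8.82% had such a Foxn3 peak, 10.6% an Rfx3 peak and 4.84% a Foxn4 peak, and 12.8% had a peak in any list. Foxn3 and Rfx3 occurred together at 7.56%, and without Foxn4, the combination of these 3 genes, at 4.5%. At the Foxn4 share, none among 10 genes is near the background and shows nothing about the set. Within the gene body or 50 kb, 6 of 10 had a Foxn3 peak (27.4% of all genes), the same 6 an Rfx3 peak (33%), and 1, Myb, a Foxn4 peak (19.9%). A peak in any list was near 40.4% of all genes, Foxn3 and Rfx3 together near 24.4%, and both without Foxn4 near 11.8%, the combination of 5 of the 6. The larger counts at 50 kb include Mcidas and Cdc20b, whose peaks are those at the Ccno start. Without these neighbours the count is 4 of 8 for Foxn3 and 4 of 8 for Rfx3. The regulators had a median length of 31.1 kb and all genes one of 17.2 kb, so the regulators' windows are somewhat longer.

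**Figure D1:**
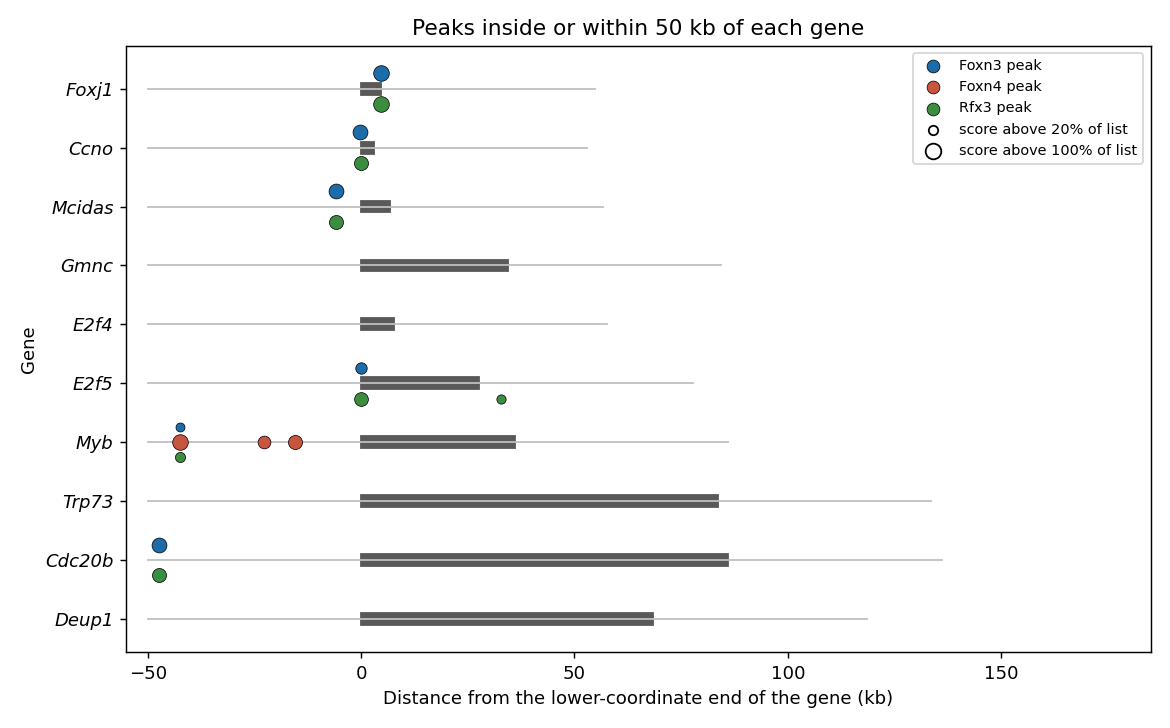
Positions of all peaks inside or within 50 kb of the 10 genes. The horizontal axis is the distance in kb from the lower-coordinate end of each gene, dark bars are gene bodies, thin lines the windows searched, and points are peaks of Foxn3 (blue), Foxn4 (red) and Rfx3 (green), larger where the score exceeds more of its own list. Paired Foxn3 and Rfx3 points sit at an end of Foxj1, Ccno and E2f5, the Ccno pair recurs in the Mcidas and Cdc20b windows, Foxn4 points appear in the Myb window alone, and Gmnc, E2f4, Trp73 and Deup1 have none.

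**Figure D2:**
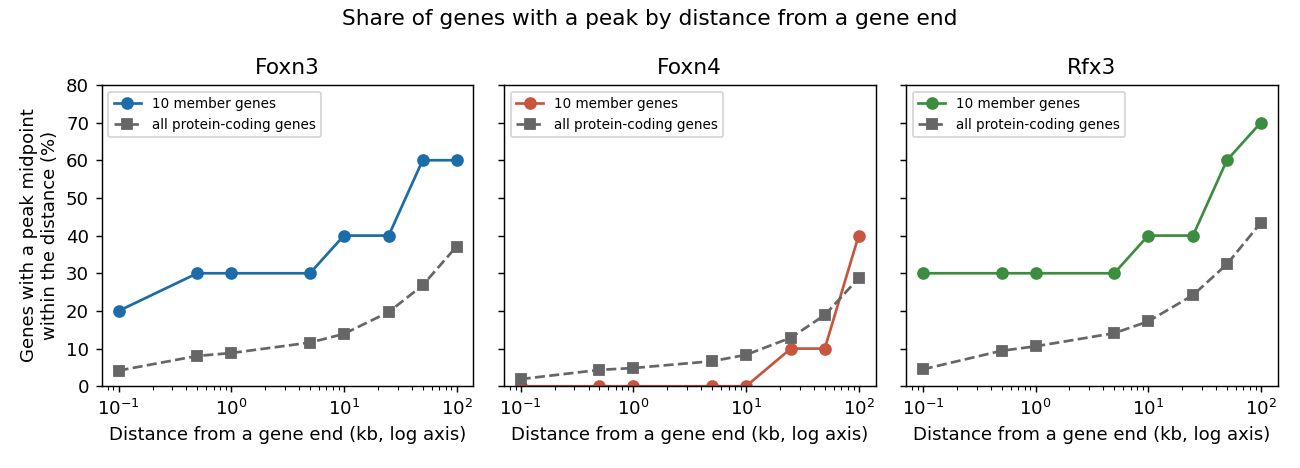
Share of genes with a peak midpoint within a given distance of either gene end (vertical axis, %), for distances of 0.1 to 100 kb on a log axis, in the Foxn3, Foxn4 and Rfx3 lists. Coloured circles are the 10 regulators and grey squares all protein-coding genes. At 1 kb the regulators stand at 30% for Foxn3 and Rfx3 and at 0% for Foxn4, with 1 gene worth 10 percentage points.

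Foxj1, the forkhead regulator of the motile cilium programme (gene ID 15223, chromosome 11, 116330704 to 116335499), had the highest-ranked Foxn3 and Rfx3 peaks of the set. Its Foxn3 peak, at 116335282 to 116335679, had a deposited score of 612 and ranked 9th from the top of the 2794 Foxn3 peaks. Its Rfx3 peak, at 116335286 to 116335588, had a score of 2091 and ranked 6th of 3981. The score is the authors' own value and is read here only as a rank within its list, given as the percentage of peaks of the list with a lower score: 99.7% for this Foxn3 peak and 99.8% for this Rfx3 peak. Both midpoints lay at the upper end of the gene, at 19 and 62 bp from it, and the Rfx3 peak lay wholly inside the Foxn3 peak.

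Of the 2236 merged regions with a Foxn3 and an Rfx3 peak, 8 had both peaks at or above the 99th percentile. The Foxj1 region was the sole region at or above its own rank in both. Both counts are bounded in advance. The cut keeps few peaks of each list, and ranks of 9th and 6th leave few other regions that could match Foxj1. Over those 2236 regions the median was 56.4% for Foxn3 and 64.4% for Rfx3. The nearest Foxn4 peak to Foxj1 lay 243 kb away, at 116086926 to 116087242, beside Wbp2. Rnf157, which encodes a ubiquitin ligase, also has an annotated end close to the Foxj1 peaks, 865 bp from the Foxn3 midpoint. The promoter table places Rnf157 on the minus strand with its start at the far end of that gene, so the end next to Foxj1 is not its annotated start.

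Ccno encodes cyclin O, which multiciliated cells need to amplify centrioles (gene ID 218630, chromosome 13, 112987802 to 112990778). The Foxn3 peak over its start, 112987423 to 112987909, had a score of 107, above 87.5% of its list. Its Rfx3 peak spanned 112987468 to 112987966 and had a score of 168, above 75.4% of its list. The peaks overlapped by 442 bp, 90.8% of the Foxn3 and 88.6% of the Rfx3 peak, and both covered the imperfect X-box and the GACGC shown above. Their midpoints lay 136 and 85 bp before the annotated start.

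Mcidas, the geminin-related inducer that is transcribed next to Ccno on the same strand (gene ID 622408, 112993581 to 113000394), had no peak of its own. The Ccno peaks were the nearest, 5.67 kb (Foxn3) and 5.62 kb (Rfx3) before its lower end. Cdc20b, a Cdc20 relative that acts in the release of new centrioles (gene ID 238896, 113034975 to 113121019), lies on the same strand beyond Mcidas. The same peaks reached its window from 47.1 and 47 kb away. The windows of these 3 neighbouring genes thus share a single bound site, which is nearest to Ccno. The nearest Foxn4 peak on this stretch, at 112927398 to 112927714, lay 60.1 kb from Ccno at an end of Dhx29, a helicase gene.

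E2f5, a DNA-binding partner of Gmnc and Mcidas (gene ID 13559, chromosome 3, 14578602 to 14606309), was bound at its lower end by both factors. The Foxn3 peak (14578484 to 14578683) was 200 bp wide with a score of 26.2, above 41.6% of its list. The Rfx3 peak (14578372 to 14579016) was 645 bp wide with a score of 145, above 71.6%, and enclosed the Foxn3 peak. A second Rfx3 peak, at 14611201 to 14611746, lay 4.89 kb beyond the other end of E2f5 with a score of 37, above 19%, and had no Foxn3 or Foxn4 partner. It is nearer to Rbis, a ribosome biogenesis gene, at 217 bp from an end of that gene. The nearest Foxn4 peak was 1577 kb away.

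The order of the bound genes was the same in both lists, Foxj1 above Ccno above E2f5. In the Rfx3 list the Ccno and E2f5 peaks ranked close together (75.4% and 71.6%), while in the Foxn3 list they lay far apart (87.5% and 41.6%). With no replicate lists, neither gap has an error to be set against. The midpoints of the Foxn3 and Rfx3 peaks were 43 bp apart at Foxj1, 51 bp at Ccno and 111 bp at E2f5. Their median over the 2200 regions with exactly 1 peak of each was 45 bp.

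**Figure D3:**
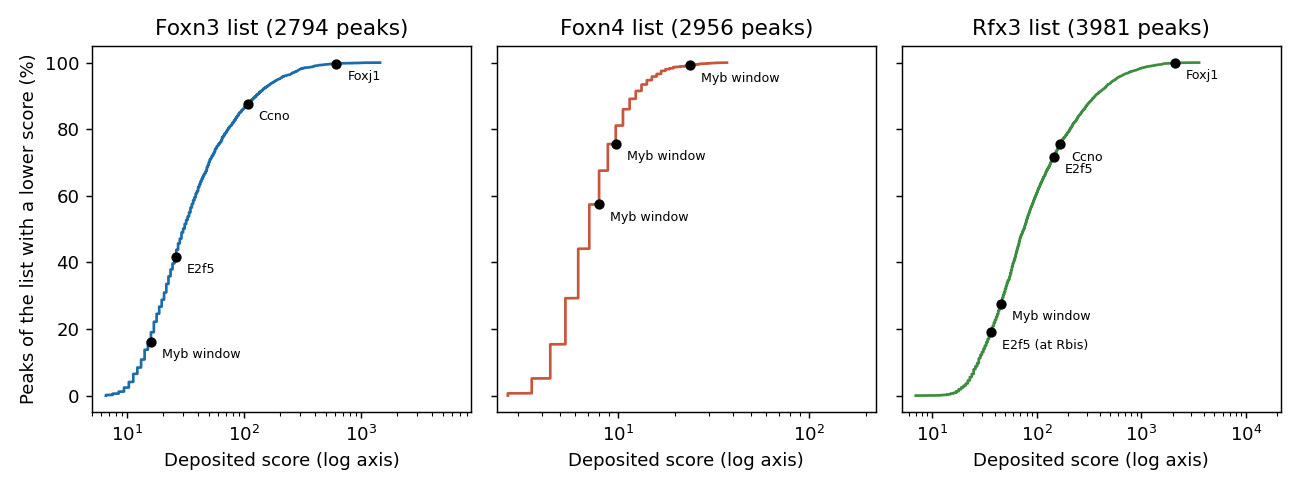
Deposited score of every peak (horizontal log axis) against the share of its list with a lower score (vertical axis, %), for the Foxn3, Foxn4 and Rfx3 lists. Black points mark the 12 distinct peaks near the regulators: Foxj1 stands at 99.7% and 99.8% in the Foxn3 and Rfx3 lists, and in the Foxn4 list the 3 marked peaks all belong to the Myb window.

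Myb, a transcription factor that acts early in multiciliated precursors and in proliferating progenitors (gene ID 17863, chromosome 10, 21124930 to 21160984), had no peak in its body or near its ends. It was the sole regulator with Foxn4 peaks in its window, and the window held all 3 of the set. The strongest, at 21082373 to 21082839, had a score of 24, above 99.1% of the Foxn4 list. Both other factors had an overlapping peak of low rank: Foxn3 from 21082279 to 21082869 (score 15.9, above 16.2%) and Rfx3 from 21082384 to 21082839 (score 46, above 27.5%). This region lay 42.1 kb from Myb and past the annotated end of Ahi1, with the Foxn3 midpoint 2145 bp beyond it. Ahi1 is a ciliary transition zone gene mutated in Joubert syndrome, and the region is far nearer to it than to Myb.

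A low Rfx3 rank beside a top Foxn4 rank was common at other loci, and a Foxn3 rank as low as here was less so. Of 28 regions with a Foxn4 peak at or above the 99th percentile, 20 had a peak in every list. Their medians were 37.8% for Foxn3 and 11.7% for Rfx3. Of the 20, 5 had a Foxn3 rank under 25%. The region in the Myb window, at 16.2%, was among 4 with a Foxn3 rank that low or lower. The other Foxn4 peaks between Ahi1 and Myb stood alone. One, at 21102005 to 21102333, scored 8 (above 57.4%) and lay 22.6 kb from Myb. The other, at 21109378 to 21109675, scored 9.78 (above 75.5%) and lay 15.3 kb from Myb, its nearest protein-coding gene.

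**Figure D4:**
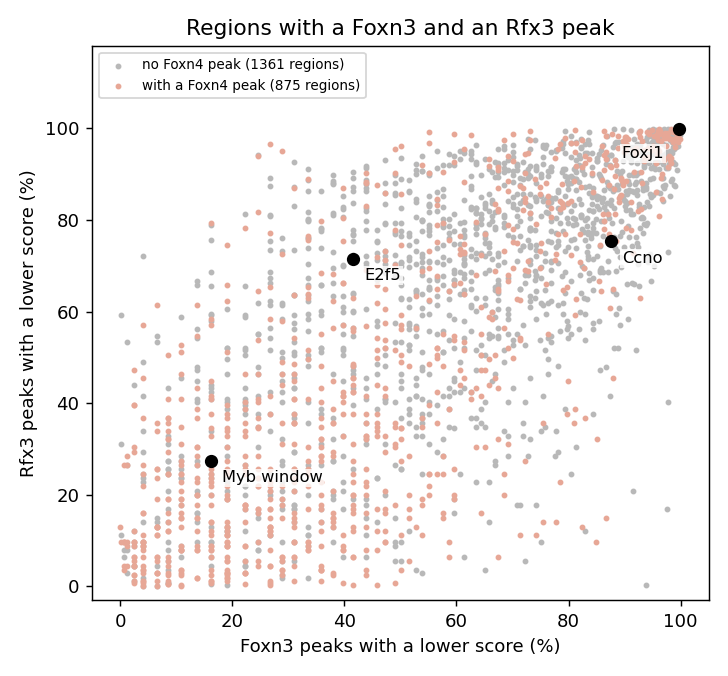
Rank of the Foxn3 peak (horizontal axis, % of the list with a lower score) against rank of the Rfx3 peak (vertical axis, same unit) for each of the 2236 regions that hold both. Grey points are 1361 regions with no Foxn4 peak, pink points 875 regions with one, and black points the 4 regions near the regulators. Foxj1 is in the upper right corner at 99.7% and 99.8%, and the region in the Myb window, the sole one of the 4 with Foxn4, is at the lower left at 16.2% and 27.5%.

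The remaining regulators had no peak in any list within 50 kb. Gmnc (gene ID 239789, chromosome 16, 26957235 to 26991675), the geminin relative at the top of the programme, was the most isolated: its nearest Foxn3 and Foxn4 peaks lay 1621 and 1622 kb away and its nearest Rfx3 peak 2728 kb away. E2f4 (gene ID 104394, chromosome 8, 105297663 to 105305370), the other E2F partner of Gmnc and Mcidas, had its nearest peaks 164 kb (Foxn3), 166 kb (Foxn4) and 164 kb (Rfx3) away, around Tppp3. Trp73 (gene ID 22062, chromosome 4, 154056249 to 154139875), a p53-family factor that activates multiciliation genes, had its nearest Rfx3 and Foxn4 peaks 80.9 and 82 kb away near Dffb, and its nearest Foxn3 peak 724 kb away. Deup1 (gene ID 234964, chromosome 9, 15559864 to 15628351), the scaffold of the deuterosome on which centrioles are assembled, had its nearest peaks 789 kb (Foxn3), 146 kb (Foxn4) and 1283 kb (Rfx3) away.

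A missing peak in the Foxn3 list can be a peak that was removed, since 851 numbers are absent from its numbering. Why they are absent is not given in the sources used here. The numbers follow genome order, and between the Foxn3 peaks that flank the windows of Gmnc, Trp73 and Deup1 none was absent. Between those that flank E2f4, 1 number was absent. For Foxj1 1 further number was absent between the flanking peaks, and for the other genes none.

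The set had 12 distinct peaks (4 Foxn3, 3 Foxn4 and 5 Rfx3) in 7 merged regions. Of the 7, 4 were shared by at least 2 lists, against 43.1% of all 6155 merged regions. Regions at a gene end (midpoint within 1 kb, any protein-coding gene) numbered 4: the 3 at Foxj1, Ccno and E2f5, with Foxn3 and Rfx3 but not Foxn4, and the Rfx3 region at Rbis. Among all 2352 gene-end regions, 33.9% had Foxn3 and Rfx3 without Foxn4, 22.5% had every factor and 21.6% had Rfx3 alone. Exon and intron positions were not determined, since the gene table gives gene ends alone.

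The wider programme was read from 4 lists of 45 other genes, all matched in the gene table. Except at the microRNA genes, whether another gene lay nearer to a peak than the listed gene was not determined. Of 13 centriole amplification genes, Foxn3 peaks lay within 1 kb of 4, Rfx3 peaks of 5 and a Foxn4 peak of 1, against 8.82%, 10.6% and 4.84% of all genes. Ccp110, a cap of the centriole end that must leave before a cilium grows, had Foxn3 at 118712380 to 118712776 on chromosome 7 (above 78% of its list) and Rfx3 at 118712239 to 118712875 (above 86.6%). Cep135 ranked at 85.8% and 79.7% and Cetn2, a centrin, at 57.6% and 67.9%. Stil, needed for procentriole assembly, was the sole one with Foxn4, at 67.6%, beside Foxn3 at 10.8% and Rfx3 at 52.8%. Pcnt had Rfx3 alone, at 20.9%. Plk4 and Sass6, which start and shape the new centriole, had no peak within 1 kb.

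Among 16 other regulators, 2 were bound by Foxn3 and Rfx3 at an end (7.56% of all genes) and none by Foxn4 (4.84%). Both counts are near the background and show nothing about these 16 genes as a set. Rfx2, the Rfx family member most tied to multiciliated cells, ranked at 43.8% for Foxn3 and 91.5% for Rfx3. Ccna2, encoding cyclin A2, ranked at 16.2% and 40.9%, with midpoints 868 and 926 bp from a gene end. Tfdp1, the dimer partner of the E2F proteins, and Gmnn, geminin itself, had none.

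Of 11 ciliary genes that Foxj1 is known to activate, 9 were bound by Foxn3 at an end and the same 9 by Rfx3, against 8.82% and 10.6% of all genes and 7.56% with both: Ccdc113, Dnah11, Dnah9, Dnai1 (listed as Dnaic1), Dnali1, Fank1, Hydin, Rsph1 and Tekt1. Foxn4 had a peak at 1 of the 11, Dnaic1 (above 0.71% of its list), which is near the 4.84% of all genes. Hydin, a protein of the axoneme's central pair, ranked highest in both, at 97.3% for Foxn3 and 98.6% for Rfx3, which is below Foxj1. Dnah9, an outer arm dynein heavy chain, ranked at 96.8% and 89.2%, and Rsph1, a radial spoke protein, at 92.2% and 96.6%. The lowest ranks among the 9 were 53.8% for Foxn3, at Fank1, and 33.9% for Rfx3, at Dnali1. Tekt4 had Foxn3 and Rfx3 peaks within 50 kb but not within 1 kb, and Spata18 had none. Binding of these factors at motile cilium genes was already known from these lists, so the count is a description and not separate evidence.

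The microRNA genes of the programme differed by locus. Members of the miR-34 and miR-449 families, which act on Ccp110 and on Notch signalling in multiciliated cells, share a seed (bases 2 to 8, in capitals), shown here because the loci that encode this seed had peaks at very different distances.

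miR-34b-5p, chr9:51103610-51103632, minus strand: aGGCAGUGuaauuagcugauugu
miR-449a-5p, chr13:113037549-113037570, plus strand: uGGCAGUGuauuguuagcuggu
miR-449c-5p, chr13:113036008-113036028, plus strand: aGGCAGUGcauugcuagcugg

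At the Mir34b and Mir34c genes a Foxn3 peak at 51101836 to 51102072 on chromosome 9 scored 400, above 98.9% of its list, and lay 0.962 kb from Mir34c and 1.49 kb from Mir34b. It overlapped an Rfx3 peak at 51101665 to 51102166, with a score of 306, above 87.4%. These peaks are also 193 and 232 bp from an end of Btg4, and the microRNA genes, on the minus strand, lie within the span of Btg4. The peaks lie at lower coordinates than Mir34b and Mir34c, so on the 3' side of both. By the midpoint rule used above, 0 of the 5 microRNA genes had a peak of any list within 1 kb of an end. Among all protein-coding genes 12.8% had one, so this count is near the background and shows nothing about these genes. Within 50 kb all 5 had a Foxn3 and an Rfx3 peak (27.4% and 33% of all genes) and none a Foxn4 peak (19.9%). These were the peaks beside Btg4 and those at Ccno, so the 5 genes are not separate sites. Mir449a, Mir449b and Mir449c lie inside Cdc20b and had no nearer Foxn3 peak than that of Ccno, 48.1 to 49.6 kb away. The nearest Foxn4 peak was 792 kb from Mir34b and Mir34c and 108 to 110 kb from the Mir449 genes.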

How the data were processed

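CUT&RUN peak lists for Foxn3, Foxn4 and Rfx3 in embryonic mouse retina were analysed. The deposited score of each peak is the authors' value. Its scaling is not given in the sources used here, and the values are whole multiples of 0.934 (Foxn3), 0.889 (Foxn4) and 1 (Rfx3). Per the submitters' processing notes, cutadapt, Bowtie2, UMI-tools, bedtools and SEACR were used, with mm10 as the build per the file headers. Their settings, the use of the control libraries and the pooling of replicates are not given in the sources used here. Positions were moved to a count from 1. Merged regions join peaks of different lists that overlap by at least 1 bp. Peaks were counted at a gene end by their midpoints, and distances given in kb run from the nearest edge of a peak to the gene, those in bp from its midpoint to a gene end. Promoter and microRNA sequences are RefSeq's (GRCm38.p6). The strand of the promoter sequences was checked on 717 overlapping pairs of windows of opposite strand, all of which matched. That of the microRNA sequences was not checked. Counting was checked on made-up positions. Python 3.11.15, pandas 2.3.3 and matplotlib 3.10.9 were used.

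The genes and lists were chosen with earlier results of these data known. All 10 regulators were named, with their nearest peak in each list. Genes of the other lists were named where a peak lay within 1 kb of an end, with some that had none. One gene of these lists is not reported here. Alternatives were other distances, the higher-scoring peaks of each list, midpoints in place of any base, and stricter overlaps. Peaks could not be scanned for motifs, because genome sequence was not used here.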

Additional observations from a re-analysis of the deposited data

How the results depend on the processing

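Of 32 alternatives, 26 left the count within 1.5 times of the one reported. This range is wide, as a fall from 6 to 4 lies within it. Some alternatives could not move: the Foxn4 count of 0 at gene ends stays 0 with a shorter distance or fewer peaks. Counts at gene ends stayed within the range at 500 bp, at 5 kb and with only peaks at or above the median score of their list. With those higher-scoring peaks, E2f5 lost its Foxn3 peak and 2 genes kept one. With the gene body alone, the count of regulators fell from 6 to 3 for Foxn3, from 6 to 3 for Rfx3 and from 1 to 0 for Foxn4, and the share of all genes to 10.4%, 13.6% and 6.86%. For Foxn4 a window of 10 kb gave 0 (10.5% of all genes) and one of 100 kb gave 4 (29.1% of all genes), through Ccno, Mcidas and Trp73. With only peaks at or above the median score, shared regions near the regulators numbered 2 (of 6, with 35% of all regions shared), because the E2f5 Foxn3 peak and the Foxn3 and Rfx3 peaks of the Myb window fell away. Leaving out Mcidas and Cdc20b, an alternative chosen after the peaks were seen, left 4 regulators for Foxn3 and 4 for Rfx3. Leaving out replicates was not run, since no list separates them. No paired analysis was possible because no list separates the libraries and no test was made. Read depth is unknown, so a peak that is not listed may be below detection.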
